A study of Mus musculus with 4 samples.

Results

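The olfactory receptor clusters described here are 3 stretches of the mouse genome (GRCm38) in which receptor genes lie side by side. The windows examined start from 85000001 to 90500001 on chromosome 2, from 104500001 to 108900001 on chromosome 7 and from 37500001 to 40300001 on chromosome 9. Members are all windows in these ranges with a value in all 4 libraries, which gave 496 of the 511 windows, out of 100714 windows of the genome with a value in all 4 libraries. Of the 15 windows left out, 13 were on chromosome 7, 2 on chromosome 2 and 0 on chromosome 9. Windows are 100 kb long and start every 25 kb, so neighbours overlap. Measures that need separate windows used those spaced 100 kb, which left 55, 42 and 29 windows in the clusters of chromosomes 2, 7 and 9. The 2 Mb on either side of each cluster served as flanks, with 120 such windows.

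The libraries were made by TrAEL-seq from mouse embryonic stem cells grown with LIF on gelatin, all of line 129S6/SvEvTac. WT replicates 1 and 2 carry the genotype label wildtype, and KO replicates 1 and 2 carry the label SNF2KO, with SNF2H in their library names. Snf2h is the ATPase of the ISWI chromatin remodellers, which slide and space nucleosomes. The labels do not say whether the KO cells were a single clone, nor that replicates came from separate cultures, so the p-values measure the spread between these libraries, which may be technical. The loss of Snf2h and the identity of the cells could not be checked here, since the table holds no expression.

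TrAEL-seq captures free 3′ ends of DNA, which at replication forks lie mainly on a single strand. The strand imbalance of the captured ends, called polarity here, therefore follows the direction in which forks move. It is given in percentage points from -50 to 50, and a window near 0 has ends on both strands alike. A steep rise or fall of polarity marks a place where fork direction switches between neighbouring windows, and a gradual slope marks a place where the switch is spread over a wide stretch or differs from cell to cell. The strand counted as positive is not stated, so whether a rise marks forks that diverge or forks that meet cannot be given. Olfactory receptors are the odorant-sensing G protein-coupled receptors of the nose. Each olfactory neuron expresses a single receptor allele, and in other cells the arrays are mostly silent. The chromatin of the arrays in these cells was not measured here. Class I receptors are related to fish receptors and sit mostly in a single array on mouse chromosome 7, and class II receptors fill the other arrays.

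The clusters held 542 of the 1429 olfactory receptor genes in the RefSeq annotation (37.9%). The cluster on chromosome 2 had 293 receptor genes, of which 222 were coding and 71 pseudogenes, with up to 11 genes in a window. They ran from Olfr987, starting at 85330967, to Olfr1274, ending at 90401674, with only 10 other coding genes in the whole cluster. The cluster on chromosome 9 was of the same kind, with 127 receptor genes from Olfr160 (37711348) to Olfr986 (40188094) and 14 other coding genes. The cluster on chromosome 7 was mixed. It held 122 receptor genes, from Olfr651 (104552884) to Olfr519 (108894405), in separate blocks with 34 other coding genes between them, and 40 of its receptors were class I and 71 class II. Its left flank continued the class I array, with 113 receptor genes, whereas the other flanks held 0. Of the windows spaced 100 kb, 51 of 55 on chromosome 2, 26 of 42 on chromosome 7 and 25 of 29 on chromosome 9 overlapped a receptor gene.

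Receptor genes also differ from their neighbours in the sequence before their annotated start. Of the 419 coding receptor genes in the clusters, 355 had an entry in the RefSeq promoter table (GRCm38.p6). The 250 bases upstream of the annotated start, called promoters here, had a median GC content of 32.4% and a median of 1 CpG, a CG dinucleotide. Whether the annotated start is where transcription begins was not checked. Of these promoters, 169 (47.6%) had no CpG and 0 had 10 or more. The 36 other coding genes of the clusters with an entry had a median of 54.8% GC, and 15 of them (41.7%) had 10 or more CpG, beside 49.7% of all 17491 coding genes with an entry. The letters TATAAA, searched on both strands with TTTATA as the reverse complement, occurred in 168 receptor promoters (47.3%) and in 12.3% of all promoters. The median GC content of all promoters was 55.2%. The counts make no allowance for this difference in base composition, so an excess of these letters beyond it was not tested. The upstream sequences of a receptor gene and of another coding gene are shown for a rise of polarity on chromosome 2 and a rise on chromosome 7 that are described further on. All are on the plus strand, 5′ to 3′, with each CG in capitals.
Olfr153, chr2:87531785-87532034: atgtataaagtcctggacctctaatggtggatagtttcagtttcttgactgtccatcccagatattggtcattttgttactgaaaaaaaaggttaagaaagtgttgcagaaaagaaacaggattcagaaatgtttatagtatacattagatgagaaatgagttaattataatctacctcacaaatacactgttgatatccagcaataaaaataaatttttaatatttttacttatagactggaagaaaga
Pramel6, chr2:87506315-87506564: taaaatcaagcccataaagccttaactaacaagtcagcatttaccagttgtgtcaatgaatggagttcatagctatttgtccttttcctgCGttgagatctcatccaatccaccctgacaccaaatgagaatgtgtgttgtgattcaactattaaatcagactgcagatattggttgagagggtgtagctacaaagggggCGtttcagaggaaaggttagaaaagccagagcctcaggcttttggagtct
Olfr716, chr7:107147048-107147297: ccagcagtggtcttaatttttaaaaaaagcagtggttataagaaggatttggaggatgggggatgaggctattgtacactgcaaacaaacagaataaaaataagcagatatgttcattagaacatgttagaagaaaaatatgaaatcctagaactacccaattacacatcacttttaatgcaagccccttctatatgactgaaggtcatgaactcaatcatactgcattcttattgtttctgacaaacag
Rbmxl2, chr7:107209195-107209444: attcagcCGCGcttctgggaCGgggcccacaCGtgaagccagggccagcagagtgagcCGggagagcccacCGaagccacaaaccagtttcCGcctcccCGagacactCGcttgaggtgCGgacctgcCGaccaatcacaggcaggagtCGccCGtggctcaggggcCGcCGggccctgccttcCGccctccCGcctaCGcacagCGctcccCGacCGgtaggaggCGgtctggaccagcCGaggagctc
Olfr153 and Olfr716 had 0 CpG, with 29.6% and 34.8% GC. Pramel6, of a gene family expressed in early embryos and stem cells, had 2 CpG at 42% GC. Rbmxl2, a gene for an RNA-binding protein of germ cells, had 23 CpG at 70.0% GC.

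Polarity within the clusters was not flat. On chromosome 2 the mean of the libraries was 22.0 points in the first window spaced 100 kb and 29.7 points in the next. It then ran down through 0, rose steeply at 2 places, and declined, with smaller upturns on the way, towards the right edge. The highest window, at 85100001 to 85200000, lay before the first receptor gene, over Aplnr (the apelin receptor) and Lrrc55. Its polarity was 30.0 and 26.7 points in WT replicates 1 and 2 and 40.0 and 22.4 points in KO replicates 1 and 2. The lowest window, at 90100001 to 90200000, held Olfr1268-ps1, Olfr1269, Olfr32 and Olfr1270. It stood at -27.3 and -23.6 points in WT against -35.7 and -29.2 points in KO, so the KO pair lay below the WT pair. On chromosome 7 the highest window, at 107800001 to 107900000, held Olfr467 to Olfr471-ps1 and Ovch2, at 31.4 and 23.1 points in WT against 39.6 and 32.4 points in KO. The lowest, at 107100001 to 107200000, held Olfr715b, Olfr715, Olfr716 and Nlrp14 (an oocyte gene), at -31.0 and -21.2 points in WT against -37.1 and -25.8 points in KO. On chromosome 9 the highest window, at 37700001 to 37800000, held Olfr160, Olfr151, Olfr874 and Olfr875, at 31.1 and 20.6 points in WT against 35.5 and 23.7 points in KO. The lowest, at 40000001 to 40100000, held Olfr979 to Olfr983, at -25.5 and -20.6 points in WT against -38.1 and -25.2 points in KO. The same sign in all 4 libraries was found in 94 of the 126 cluster windows (74.6%), beside 74.4% of all 23672 autosomal windows spaced 100 kb.

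**Figure D1:**
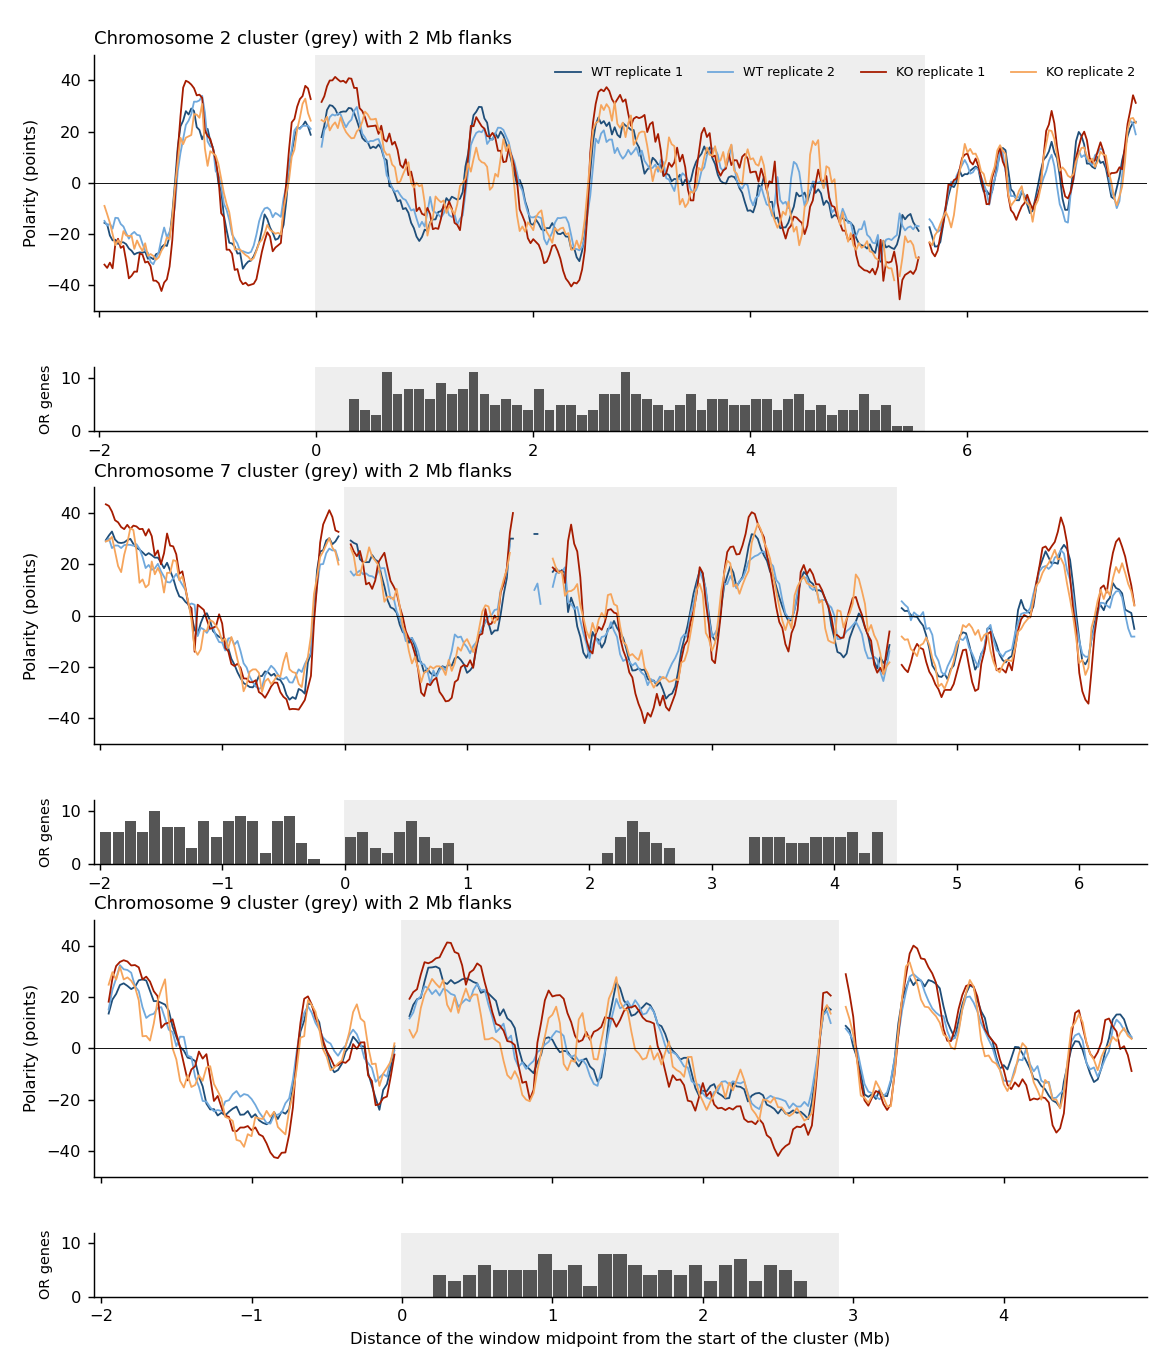
Polarity of every window with a value, in percentage points, against the distance of its midpoint from the start of the cluster in Mb, for the 3 clusters (grey) and their 2 Mb flanks, with the number of olfactory receptor (OR) genes that overlap each window spaced 100 kb below. The libraries follow a similar course with local differences, for instance inside the chromosome 9 cluster, the long slopes on chromosomes 2 and 9 lie over receptor genes, and the receptor genes of chromosome 7 lie in separate blocks and also fill its left flank.

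Amplitude, the SD of polarity over the windows of a region averaged over the 3 regions, was higher in the clusters than over the autosomes as a whole. It was 17.0 and 14.8 points in WT against 22.2 and 16.2 points in KO. In all 12 pairs of cluster and library it exceeded the SD of that library over all autosomal windows, which was 14.6 and 12.8 points in WT against 19.5 and 14.5 points in KO. In 10 of the 12 it also exceeded the upper quartile of 580 autosomal stretches of 4 Mb. The flanks had 17.9 and 15.9 points in WT against 23.2 and 17.6 points in KO. The clusters were thus lower than their flanks in 4 of 4 libraries, with a mean difference of -1.11 ± 0.224 points (SD, n = 4; exact two-sided sign-flip test, p = 0.13, the lowest p possible with 4 libraries; adjusted p = 0.333 over 8 tests). This order did not hold with flanks of 1 Mb, where the clusters were higher by 0.193 points. The difference shrank to -0.393 points against flank windows without receptor genes. The flank SD pools the left and right flank of a cluster. In alternatives chosen after seeing the data, the difference was -0.521 points with the SD taken for each flank side apart and -0.338 points without chromosome 7. On chromosome 7 the cluster was lower than its flanks in 4 of 4 libraries, and on chromosome 9 in 1 of 4.

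Averaged over the 3 clusters, polarity changed more gradually within the clusters than beside them. The step, the mean absolute change between windows 100 kb apart, was 8.21 and 7.55 points in WT against 10.7 and 9.14 points in KO in the clusters. In the flanks it was 10.1 and 9.22 points in WT against 13.1 and 11.0 points in KO. The autosomal step lay between them in each library, at 8.85, 8.13, 11.4 and 9.62 points in the same order. The cluster step was smaller than the flank step in 4 of 4 libraries, with a mean difference of -1.96 ± 0.317 points (SD, n = 4; exact sign-flip p = 0.13, adjusted p = 0.333). The 4 libraries measure the same 3 clusters, so the sign-flip tests of this report do not cover the spread between clusters. Divided by the SD of the same region, the step was 0.483 and 0.509 in WT against 0.481 and 0.564 in KO in the clusters, and 0.563, 0.580, 0.564 and 0.624 in the flanks in the same order. Chromosome 7 went the other way in 4 of 4 libraries, at 0.602, 0.534, 0.669 and 0.612 in the cluster against 0.481, 0.468, 0.517 and 0.576 in its flanks. The clusters of chromosomes 2 and 9 each had a smaller step than their flanks in 4 of 4 libraries. On chromosome 2 the step was 6.50 and 7.31 points in WT against 8.06 and 8.80 points in KO, and in its flanks 10.6, 9.03, 12.6 and 10.2 points. In the undivided step, the cluster of chromosome 7 was below its flanks in 1 of 4 libraries. Without chromosome 7 the difference was -3.11 points, an alternative chosen after seeing the data.

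**Figure D2:**
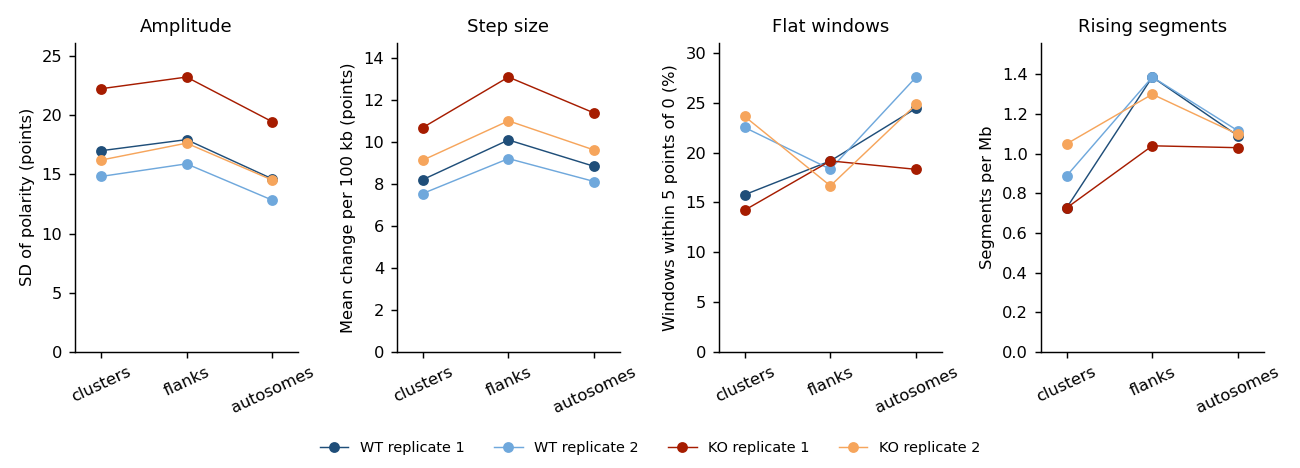
Amplitude (SD of polarity, points), step (mean change per 100 kb, points), share of windows within 5 points of 0 (percent) and rising segments per Mb, each point being a library, in the clusters, their flanks and all autosomes. In each library the clusters have a smaller step and fewer rising segments per Mb than the flanks, and a larger SD than the autosomes, while the share of flat windows has no common order of clusters and flanks.

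Within the clusters and the left flank of chromosome 7, the small steps lay over windows with receptor genes. In the 102 cluster windows that overlap a receptor gene, the mean change to the neighbouring windows was 7.10 and 7.01 points in WT against 9.54 and 8.80 points in KO. In the 24 cluster windows without a receptor gene it was 12.4 and 10.1 points in WT against 14.8 and 10.1 points in KO. The 102 flank windows without a receptor gene gave 10.4, 9.79, 13.4 and 11.2 points, and the 18 receptor windows in the left flank of chromosome 7 gave 7.46, 6.40, 9.56 and 9.07 points. In each library both sets of receptor windows from these regions thus had a smaller step than both sets without receptor genes. Their step was also smaller than that of all autosomal windows. The 27 windows with class I and no class II genes, mostly in that flank, had steps of 7.18 and 6.27 points in WT against 9.87 and 8.27 points in KO. The 91 windows with class II and no class I genes had 7.13 and 7.10 points in WT against 9.46 and 9.03 points in KO, so neither class was lower in every library. The class I windows were farther from 0, with a median absolute polarity of 21.8 and 17.2 points in WT against 24.3 and 19.3 points in KO. That of class II windows was 13.6, 13.4, 18.6 and 11.5 points. These are descriptions of windows that share a chromosome and often an array, and no test was made between the sets. Over all autosomes, the 361 windows with a receptor gene had a step of 8.68 and 7.91 points in WT against 10.9 and 9.48 points in KO. The 200 with 4 or more receptor genes had 7.79, 7.29, 9.79 and 9.01 points. All autosomal windows gave 8.85, 8.13, 11.4 and 9.63 points, so the 361 lay only slightly lower. Both sets include receptor windows of these clusters and the chromosome 7 flank, and receptor windows elsewhere were not measured apart. Small steps over receptor genes are thus shown for these regions only.

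**Figure D3:**
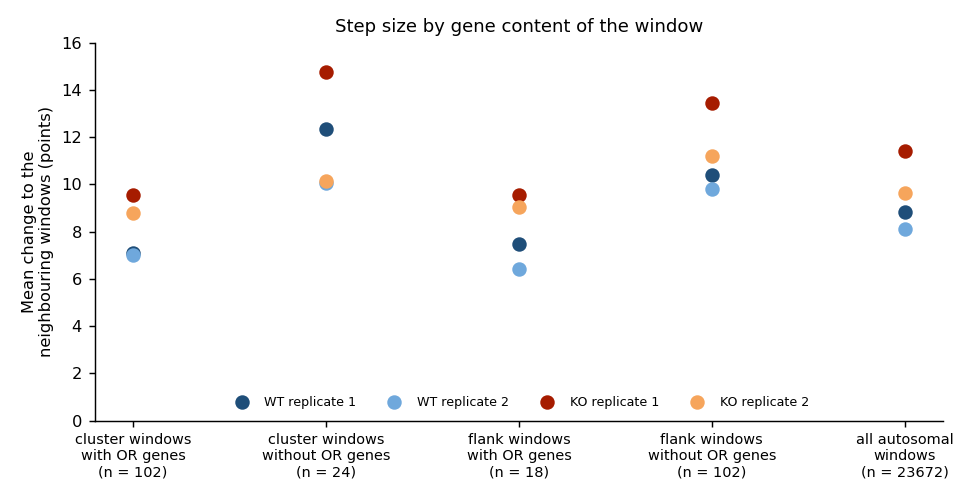
Mean absolute change of polarity to the neighbouring windows, in points, for windows grouped by whether they overlap an olfactory receptor (OR) gene, each point being a library. In every library the windows with receptor genes, in clusters and in the chromosome 7 flank, lie below the windows without them.

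The share of flat windows, those within 5 points of 0, gave no common order. It was 15.8% and 22.5% in WT against 14.2% and 23.6% in KO in the clusters, and 19.2%, 18.3%, 19.2% and 16.7% in the flanks. The clusters were lower in 2 libraries and higher in 2, and the mean difference of 0.706 percentage points had an SD of 5.77 (n = 4; exact sign-flip p = 0.875, adjusted p = 1). In 10 of 12 pairs of cluster and library the share was below that of all autosomal windows. The longest stretch of the clusters within 10 points of 0, by the mean of the libraries, lay on chromosome 2 at 88700001 to 89300000, over 0.6 Mb and 32 receptor genes. A longer one lay in the right flank of that cluster, at 90800001 to 91700000, over 0.9 Mb and 0 receptor genes. The next in the clusters lay on chromosome 9 at 38400001 to 38900000, over 0.5 Mb and 29 receptor genes. In the mean of the libraries, long stretches of a single sign were also found, from 89000001 to 90300000 on chromosome 2 (1.3 Mb, 64 receptor genes) and from 39200001 to 40300000 on chromosome 9 (1.1 Mb, 48 receptor genes), both negative. In single libraries some windows of these negative stretches were above 0, by up to 11.0 points on chromosome 2 and 5.60 points on chromosome 9. The left part of the chromosome 2 stretch lay near 0, with means of -0.607, -1.30 and -0.060 points at 89000001, 89500001 and 89600001. The stretch ends at a window without a value in KO replicate 2. The mean was again negative beyond it, at -22.2 points at 90400001, so its length is not settled.

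Rising segments, in which the smoothed profile of a library climbs by at least 1 SD of that library, were fewer in the clusters. There were 9 and 11 in WT against 9 and 13 in KO over 12.4 Mb of windows with a value, or 0.726 and 0.887 per Mb in WT against 0.726 and 1.05 per Mb in KO. The flanks had 1.39 and 1.39 per Mb in WT against 1.04 and 1.30 per Mb in KO, and the autosomes 1.09, 1.11, 1.03 and 1.10 per Mb. The clusters were lower than the flanks in 4 of 4 libraries, with a mean difference of -0.430 ± 0.186 per Mb (SD, n = 4; exact sign-flip p = 0.13, adjusted p = 0.333). Chromosome 2 had the fewest, with 2 and 3 in WT against 2 and 4 in KO in 5.475 Mb, against 7, 7, 5 and 5 in 3.85 Mb of flanks. The cluster of chromosome 7 had 4, 5, 4 and 5 rises in 4.1 Mb and its flanks 4, 4, 3 and 4 in 3.85 Mb. That is 0.976, 1.22, 0.976 and 1.22 per Mb against 1.04, 1.04, 0.779 and 1.04 per Mb, so this cluster was higher than its flanks in 3 of 4 libraries. On chromosome 9 the cluster had 3 and 3 in WT against 3 and 4 in KO, or 1.06, 1.06, 1.06 and 1.42 per Mb, beside 1.30, 1.30, 1.04 and 1.56 per Mb in its flanks, so it was lower in 3 of 4 libraries. Without chromosome 7, an alternative chosen after seeing the data, the difference was -0.706 per Mb. With a running mean of 9 windows in place of 5 it was -0.205 per Mb, and with a minimum rise of 0.5 SD it was -0.261 per Mb. Falling segments, called in the same way, numbered 1.05 and 1.13 per Mb in WT against 1.13 and 1.21 per Mb in KO in the clusters. The flanks had 1.39, 1.30, 1.13 and 1.56 per Mb and the autosomes 1.11, 1.14, 1.03 and 1.16 per Mb. Falls were thus not fewer in the clusters than in the flanks in KO replicate 1, nor than over the autosomes in either KO library.

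Called on the mean profile of the 4 libraries, 10 rises lay in the clusters and 13 in the flanks. The tallest cluster rise was on chromosome 2, between 87400000 and 87650000, which holds the Olfr153 and Pramel6 promoters shown above. The profile climbed there by 51.1 and 42.3 points in WT against 74.2 and 52.9 points in KO, at a mean of 22.0 points per 100 kb. Both KO libraries were above both WT libraries, as in 4 of the 10 rises and in 40.9% of 2455 rises over all autosomes. The difference of 16.9 points there compares with a pooled replicate SD of 11.5 points (exact permutation p = 0.333, and no lower p is possible with 2 libraries a genotype). The segment spans 11 receptor genes and the Pramel6 and Pramel7 genes. The other chromosome 2 rise, between 86275000 and 86500000, spans 21 receptor genes and no other coding gene, and climbed by 33.9 and 33.3 points in WT against 36.5 and 17.9 points in KO. The libraries of the genotypes overlap there.

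On chromosome 7, 3 of the 4 rises lay wholly or mostly over other coding genes between the blocks of receptor genes. The rise between 105500000 and 105800000 spans 12 other coding genes and no receptor gene, among them Taf10 (a subunit of the transcription factor TFIID), Ilk (integrin-linked kinase) and Smpd1 (acid sphingomyelinase). It climbed by 29.6 and 25.5 points in WT against 33.6 and 25.0 points in KO. The segment stops where windows with a value in all 4 libraries end, so its full height and its end are unknown. The last such window, at 105800001, stood at 30.0 and 27.8 points in WT against 32.4 and 24.5 points in KO. The rise between 107100000 and 107400000 starts at Olfr715b, Olfr715 and Olfr716 and runs over Nlrp14, Rbmxl2 and Syt9 (a synaptotagmin). It holds the Olfr716 and Rbmxl2 promoters shown, and climbed by 42.2 and 35.5 points in WT against 44.1 and 30.0 points in KO. In neither did the measured heights separate the genotypes. A rise between 107500000 and 107675000, over Syt9, Olfml1 and Ppfibp2, climbed by 18.0 and 15.1 points in WT against 33.9 and 23.2 points in KO. The smallest, between 108125000 and 108275000, lay over 5 receptor genes, Olfr484 to Olfr488, and climbed by 14.0 and 11.6 points in WT against 25.5 and 14.2 points in KO. In these last 2 both KO libraries were above both WT libraries.

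The edges of the chromosome 9 cluster each held a tall rise next to genes that are not receptors. The left rise, between 37350000 and 37725000, spans 12 other coding genes such as Robo3 and Robo4 (axon and vessel guidance receptors) and Nrgn (neurogranin), with Olfr160 at its end. It climbed by 48.0 and 32.9 points in WT against 54.2 and 34.2 points in KO. The right rise, between 40050000 and 40350000, spans Olfr982 to Olfr986 and then Tmem225, Zfp202, Scn3b and Gramd1b, and climbed by 39.1 and 32.0 points in WT against 59.6 and 37.2 points in KO.

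Inside the chromosome 9 cluster, a pair of rises over receptor genes alone had opposite orders of the genotypes. The rise between 38325000 and 38500000, over 12 receptor genes from Olfr25 to Olfr907, climbed by 8.09 and 10.7 points in WT against 34.5 and 28.7 points in KO. The KO libraries were both higher, by 22.2 points with a pooled replicate SD of 3.16 points (exact permutation p = 0.333). The rise between 38775000 and 38950000, over 14 receptor genes from Olfr921 to Olfr932-ps1, climbed by 29.3 and 27.5 points in WT against 5.96 and 19.02 points in KO. Here, alone among the 10, the KO libraries were both lower (background 6.80%), the difference being -15.9 points with a pooled replicate SD of 6.59 points (exact permutation p = 0.333). In units of each library's autosomal SD the differences were 1.18 and -1.26, and a difference of 1 or more in size was found in 2 of the 10 rises beside 5.21% of the autosomal rises. The window at 38700001 with Olfr920 and Olfr921, which reaches into the start of the second rise, stood at -7.09 and -10.8 points in WT against 3.33 and 4.64 points in KO. The window at 38800001, with Olfr922 to Olfr928-ps1 and wholly inside that rise, stood at -1.74 and -1.03 points in WT against 12.2 and 10.0 points in KO. In both windows the KO libraries lay above the WT libraries. This pair of rises was singled out after its values were seen, and in limma the windows named had adjusted p-values of 0.262 and 0.281.

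**Figure D4:**
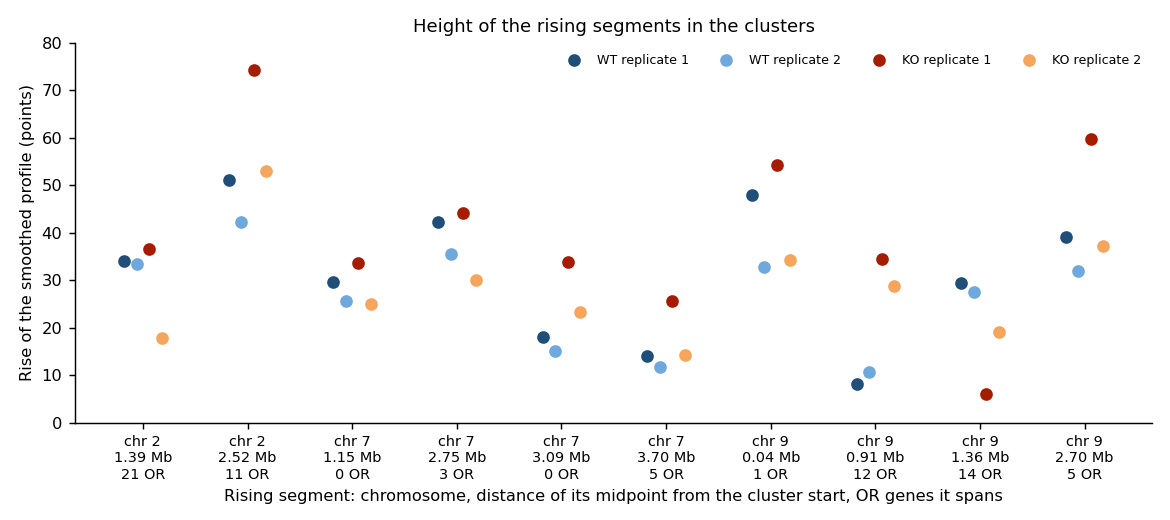
Height of the 10 rising segments of the clusters, in points, each point being a library, with the chromosome, the distance of the segment's midpoint from the cluster start in Mb and the number of olfactory receptor (OR) genes it spans. The KO libraries lie above both WT libraries in 4 segments, and in the chromosome 9 segment with 14 receptor genes both lie below.

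Over the 10 rises the mean height was 31.3 and 26.6 points in WT against 40.2 and 28.2 points in KO, so KO replicate 2 fell inside the WT range. The difference of 5.24 points is smaller than the pooled replicate SD of 6.43 points (exact permutation p = 0.667). The KO mean was higher in 7 of the 10 (background 79.2%). Of the 10, 5 were also called in each of the 4 libraries alone, against 12 of 13 in the flanks (background 73.4%). The 13 cluster falls had a median length of 375 kb and a median slope of 8.03 points per 100 kb, the 15 flank falls 250 kb and 10.2 points, and the autosomal falls 325 kb and 8.53 points. The longest cluster fall ran over 850 kb of chromosome 2, from 85175000 to 86025000, over 47 receptor genes from Olfr987 to Olfr1033. Polarity dropped there by 46.2 and 38.5 points in WT against 53.2 and 34.4 points in KO.

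The genotypes were next compared for the measures of the whole clusters. Amplitude was 3.31 points higher in KO than in WT, about the pooled replicate SD of 3.20 points, with KO replicate 1 above both WT libraries and KO replicate 2 in between (permutation over libraries, exact p = 0.667, adjusted p = 1). It was 0.295 points without KO replicate 1 and 6.32 points without KO replicate 2, and with each library scaled to the mean SD it turned to -0.451 points. The ratio of KO to WT was 1.21 in the clusters, 1.21 in the flanks and 1.24 over all autosomes. Divided by each library's autosomal SD, cluster amplitude was 1.16 and 1.16 in WT against 1.14 and 1.12 in KO. The step was 2.03 points larger in KO, with a pooled replicate SD of 0.844 points and both KO libraries above both WT libraries (exact permutation p = 0.333, adjusted p = 0.667). With each library scaled to the mean SD, the step differed by only 0.222 points (exact permutation p = 1), and without KO replicate 1 by 1.26 points. It was larger in the flanks too, by 2.399 points, and by a ratio of 1.24 over all autosomes beside 1.26 in the clusters. The share of flat windows differed by -0.221 percentage points (pooled replicate SD 5.79; exact permutation p = 1). Its direction was not settled, since it was 3.52 with each library scaled to the mean SD and ran from -4.92 without KO replicate 2 to 4.48 without KO replicate 1. The rises differed by 0.0806 per Mb (pooled replicate SD 0.180; exact permutation p = 1), and by -0.0806 to 0.242 per Mb with a library left out. The cluster minus flank difference itself did not separate the genotypes in amplitude, step or flat windows (exact permutation p = 0.667, 0.667 and 1). For rises per Mb it was smaller in size in both KO libraries, at -0.313 and -0.250, than in both WT libraries, at -0.659 and -0.498 (exact permutation p = 0.333).

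In the limma fit on genotype alone, no single cluster window passed the test between genotypes. Over all 23672 autosomal windows, 0 of the 126 cluster windows had a Benjamini-Hochberg adjusted p under 0.05, and the lowest was 0.152. The background was 13 windows (0.0549%). At an unadjusted p under 0.05 there were 24 cluster windows (19.05%), against 12.2% of all autosomal windows and 10 of 120 flank windows (8.33%). Of the 24, 18 were higher and 6 lower in KO, where the background was 6.10% and 6.11%. They were 15 of 55 windows on chromosome 2, 4 of 42 on chromosome 7 and 5 of 29 on chromosome 9, and windows next to each other are not independent. KO and WT did not overlap in 60 cluster windows (47.6%), beside 44.7% of all autosomal windows, with KO above in 35 (background 22.2%) and below in 25 (background 22.5%). The KO mean was farther from 0 in 83 (65.9%; background 68.7%). Replicates differed more in KO: the replicate SD over cluster windows was 3.76 points in WT against 6.93 points in KO, and 3.57 and 6.08 points over all autosomal windows.

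With limma's trend and robust options, 2 of the 126 windows were called (background 1.28%), the one at 85800001 on chromosome 2 higher and the one at 89400001 lower in KO. Without KO replicate 1, limma with its default options called 21, and without KO replicate 2 it called 35 (backgrounds 5.79% and 20.2%). With WT replicate 1 or WT replicate 2 left out it called 0, with unadjusted p-values under 0.05 in 6 windows (4.76%) each time, beside 4.13% and 2.94% of all autosomal windows.

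The window with the largest difference lay on chromosome 2 at 89400001 to 89500000, over Olfr1236-ps1 to Olfr1242. Polarity there was -5.25 and 4.19 points in WT against -14.7 and -24.4 points in KO, so that WT lay on both sides of 0 and both KO libraries lay below it. KO minus WT was -19.005 points with an SE of 4.96 (adjusted p = 0.152 in limma). Some 0.4 Mb before it, the windows at 88900001 (Olfr1209 to Olfr1214) and 89000001 (Olfr1215 to Olfr1220) differed in the other direction. They stood at -7.63 and -0.292 points and at -8.29 and -5.81 points in WT, and at 11.3 and 9.26 points and at 4.37 and 7.30 points in KO. Near the left end of the array, the window at 85800001 (Olfr1016 to Olfr1023) stood at -11.7 and -8.69 points in WT against 2.99 and 8.02 points in KO. KO minus WT was 15.7 points there with an SE of 4.58 (adjusted p = 0.191 in limma). Its neighbours at 85700001 and 85900001 differed in the same direction. These windows, other than the one with the largest difference, were picked after their values were seen.

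The largest difference on chromosome 7 lay at 106300001 to 106400000, with no coding gene. Polarity was 7.01 and 4.65 points in WT against 35.5 and 9.57 points in KO. The difference of 16.7 points, with an SE of 6.07 (adjusted p = 0.286 in limma), rested mainly on KO replicate 1. On chromosome 9 it lay at 38300001 to 38400000, over Olfr897-ps1, Olfr25, Olfr898, Olfr250 and Olfr251, at the foot of the rise that was taller in KO. Polarity was -8.25 and -6.25 points in WT against -19.9 and -20.7 points in KO. KO minus WT was -13.0 points with an SE of 4.50 (adjusted p = 0.260 in limma).

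**Figure D5:**
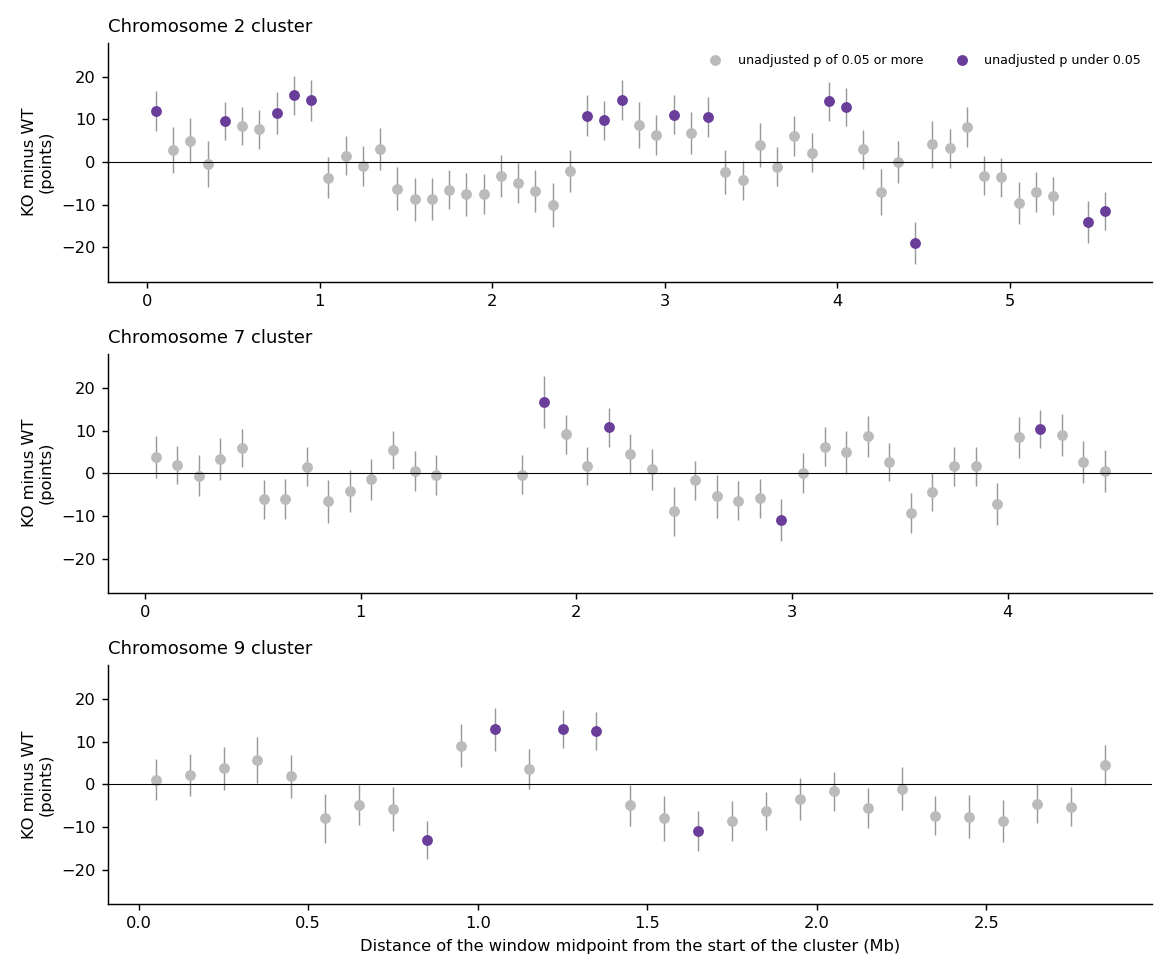
Difference of polarity between KO and WT, in points, with its limma standard error, for the cluster windows spaced 100 kb, against the distance of the window midpoint from the cluster start in Mb. Windows with an unadjusted p under 0.05 (24 of 126) are purple, 15 of them on chromosome 2, and no window had an adjusted p under 0.05 in this fit.

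Across the cluster windows, Pearson's r was 0.952 for the pair of WT libraries, 0.912 for the pair of KO libraries, and from 0.841 to 0.923 between genotypes. These correlations are over windows of the same 4 libraries and are given as a description. The whole-genome table had 7641 and 7717 windows without a value in WT and 8064 and 8249 in KO, and it gives no read counts, so the depth behind each value is unknown and no interval for counting error can be given.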

How the data were processed

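TrAEL-seq of 2 WT and 2 Snf2h KO libraries was used. Per the submitters' processing notes, reads were trimmed with Trim Galore 0.6.5 and mapped with Bowtie2 2.4.1 to GRCm38. Per the file headers, the authors added an rRNA sequence to the genome and removed duplicate reads. The deposited values are a score per 100 kb window and library, a signed strand imbalance in percentage points; how it was computed, which strand is positive and any minimum of reads per window are not given in the sources used here. WT replicate 2 has another index in its column name than in its label. Depth is unknown.

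From these scores, only full-length autosomal windows present in all 4 libraries (19 autosomes) were used. Amplitude, step and flat share came from windows spaced 100 kb. Rises and falls were monotone segments of a running mean of 5 windows with a change of at least 1 SD of the library, placed by their midpoint. Genotypes were set against each other by exact two-sided permutation (smallest p = 0.333), clusters with flanks by exact sign-flip over 4 libraries (smallest p = 0.13), with Benjamini-Hochberg adjustment over these 8 tests. Windows were tested with limma 3.58.1 (lmFit and eBayes, R 4.3.3, threshold 0.05 after Benjamini-Hochberg adjustment), tested on simulated data first. Other steps ran in Python 3.11.15 (scipy 1.17.1, pandas 2.3.3, numpy 2.4.6; figures with matplotlib 3.10.9).

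Named windows were, in each cluster, those with the largest difference and with the highest and lowest mean; all common rises of the clusters were named. Receptor genes were those with an Olfr or Or symbol or synonym, and class I those with MOR synonyms from 1 to 42 or symbols Or51 to Or56. The members, lists and tests were chosen with earlier results of these data known. Alternatives were other window sets, scales, thresholds, smoothing, flanks, limma options, the replicate block and omission of each library.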

Additional observations from a re-analysis of the deposited data

How the results depend on the processing

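Of 44 other values, not counting settings that leave out a library, were chosen after seeing the data or leave the value as it is (the replicate block, for the KO minus WT means), 36 kept the direction, or the count within 1.5 times. Scaling each library to the mean SD turned the KO minus WT difference of amplitude to -0.451 points and that of flat windows to 3.52 percentage points. Flanks of 1 Mb turned the cluster minus flank difference of amplitude to 0.193 points. That of flat windows turned to -0.906 percentage points with windows starting 50 kb later and, in an alternative chosen after seeing the data, to -0.920 without chromosome 7. A running mean of 9 windows gave a KO minus WT difference of 0 rises per Mb. The cause was not tested. The step and the rises per Mb stayed lower in clusters than in flanks under each alternative run.

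In limma, the replicate block called 5 of the 126 cluster windows, 4 higher and 1 lower in KO (2.66% of all autosomal windows), namely 85800001, 85900001, 87700001 and 89400001 on chromosome 2 and 106300001 on chromosome 7. The block with standardised libraries called 10 (3.62%) and the trend and robust options 2 (1.28%), and both sets hold 85800001 and 89400001. Standardising alone, the atanh scale and overlapping windows called 0, with unadjusted p-values under 0.05 in 30 and 22 of 126 and 92 of 496 windows (14.4%, 11.2% and 12.1% of all autosomal windows). The replicate numbers share nothing else in the labels, and with only 2 pairs the deviations of same-numbered libraries correlated at 0.241 as deposited and 0.0158 after standardising, so the block did not serve as the main design.

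Leaving out each library in turn, KO minus WT ranged from 0.295 to 6.32 points for amplitude, 1.26 to 2.81 points for the step, -4.92 to 4.48 percentage points for flat windows and -0.0806 to 0.242 for rises per Mb. Clusters minus flanks ranged from -1.16 to -0.999 points, -2.06 to -1.81 points, -1.38 to 2.59 percentage points and -0.490 to -0.354 per Mb. The limma calls ranged from 0 to 35, where the lone library of a genotype is assumed to vary like the other genotype. Depth is unknown, so what it limits cannot be stated.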

Other observations

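The strand of the receptor genes was set beside the sign of polarity. Of the 160 coding receptor genes of the clusters on the plus strand that have a promoter entry and a window with a value, 46.3% and 48.1% lay in windows of positive polarity in WT replicates 1 and 2, and 58.1% and 53.8% in KO replicates 1 and 2. Of the 194 such genes on the minus strand it was 31.4% and 41.2% in WT against 44.8% and 42.8% in KO. Over the 3 clusters together the share was higher on the plus strand in each library. On chromosome 2 alone this order did not hold in WT replicate 2, with 29 of 61 plus-strand and 60 of 124 minus-strand genes, or in KO replicate 2, with 28 and 61. Genes of an array often share their strand and their window, so these shares are a description with no test.

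The receptor promoters of the chromosome 2 cluster had a median of 30.8% GC, those of chromosome 7 33.6% and those of chromosome 9 34.4%. The letters TATAAA or TTTATA occurred in 51.6%, 48.9% and 35.4% of them, with no allowance for base composition. The promoters of class I genes of the clusters and flanks had a median of 36.0% GC, and those of class II genes 32.0%.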
